A study of Mus musculus with 4 samples.

Results

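Egr and other immediate-early genes, 10 in all, were followed over 4 arrays of mouse MC3T3-E1 cells. The genes were chosen by name, with earlier results of these data known. They comprise the Egr transcription factor genes Egr1, Egr2 and Egr3 together with Ier2, Ier3, Dusp1, Nr4a1, Zfp36, Btg2 and Klf4. All 10 had at least 1 probe set on the Affymetrix Mouse Genome 430 2.0 array, 14 of 45101 probe sets in all, and each was above the signal floor described below on all 4 arrays. They are 10 of 18193 named genes, of which 12503 were above the floor on at least 1 array. MC3T3-E1 is an immortal, fibroblast-like preosteoblast line from the calvaria, or skull cap, of newborn C57BL/6 mice. The 4 groups were osteogenic medium for 6 days, normal medium for 6 days, osteogenic medium for 3 days and normal medium for 3 days, with 1 array each. All cells grew in MEM α with 10% fetal bovine serum, and the osteogenic form added 150 µM of ascorbic acid 2-phosphate, a stable form of vitamin C, and beta-glycerophosphate (10 mM) as a source of phosphate. The labels do not give the time between the last change of medium and harvest, nor whether the groups came from separate cultures.

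Immediate-early genes are transcribed within minutes of a stimulus such as serum, growth factors or mechanical handling, without new protein synthesis, and their mRNAs are short-lived. ERK signalling activates ternary complex factors that sit with serum response factor on CArG boxes, and kinases acting on CREB use the cAMP response element. Egr1, Egr2 and Egr3 encode zinc finger transcription factors, Ier2 and Ier3 early response proteins, and Nr4a1 an orphan nuclear receptor. Dusp1 encodes a phosphatase that switches off MAP kinases, Zfp36 the protein tristetraprolin, which destabilises mRNAs with AU-rich elements, Btg2 an antiproliferative regulator of mRNA deadenylation, and Klf4 a Krüppel-like zinc finger factor. In bone, Egr and Fos family genes are known to respond to parathyroid hormone and to mechanical loading.

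Promoter sequences are shown for 4 of these genes because their windows hold a CArG box or a cAMP response element. RefSeq windows of assembly GRCm38.p6, 250 bases before to 50 bases after a transcript start, were matched by symbol for 7 of the 10 genes, with 11 windows in all, 5 of them for Egr2. These 7 were Egr2, Ier3, Dusp1, Nr4a1, Zfp36, Btg2 and Klf4, and Egr1, Egr3 and Ier2 were not searched. A CArG box stood in windows of Egr2 and Zfp36, and in 1.63% of all 32851 windows. The full cAMP response element TGACGTCA stood in those of Dusp1 and Btg2, and in 1.79% of all windows. Its partial form TGACG, which overlaps the full one, was found for 5 of the 7 genes and in 20.8% of all windows, and GGGCGG for 7 of 7 and in 35.7%. The Egr site GCGTGGGCG and TATAAA were found for 0 of the 7 genes, and in 0.612% and 13.6% of all windows. The counts are of genes with a match in any of their windows, while the shares are of single windows, so the 2 are not like for like. Both strands were searched, and a match is a description of letters only. The 250 bases before the start are given for Zfp36 (chr7:28379229-28379478, minus strand), Dusp1 (chr17:26508473-26508722, minus strand) and Btg2 (chr1:134079156-134079405, minus strand). For Egr2, 30 bases around each of 2 distinct CArG boxes are given (chr10:67537484-67537513 and chr10:67537787-67537816, plus strand). Capitals mark the CArG box in Zfp36 and Egr2 and TGACGTCA in Dusp1 and Btg2.
Zfp36: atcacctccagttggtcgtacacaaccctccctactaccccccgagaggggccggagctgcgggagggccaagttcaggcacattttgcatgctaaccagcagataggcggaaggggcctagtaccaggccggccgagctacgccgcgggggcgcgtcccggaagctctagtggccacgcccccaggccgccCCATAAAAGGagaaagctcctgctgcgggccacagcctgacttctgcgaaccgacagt
Dusp1: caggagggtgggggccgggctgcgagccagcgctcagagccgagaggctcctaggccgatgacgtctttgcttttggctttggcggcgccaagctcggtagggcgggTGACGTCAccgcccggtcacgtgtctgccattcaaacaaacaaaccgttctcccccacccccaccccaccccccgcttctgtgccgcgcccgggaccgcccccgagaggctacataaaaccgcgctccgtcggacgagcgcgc
Btg2: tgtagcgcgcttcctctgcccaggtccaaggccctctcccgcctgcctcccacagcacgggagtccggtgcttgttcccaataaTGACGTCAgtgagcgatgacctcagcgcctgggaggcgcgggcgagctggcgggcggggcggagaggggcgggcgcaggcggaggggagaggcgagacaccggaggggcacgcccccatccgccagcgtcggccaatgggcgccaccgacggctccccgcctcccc
Egr2, first box: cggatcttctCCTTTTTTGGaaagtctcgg
Egr2, second box: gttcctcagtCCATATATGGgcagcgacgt

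Signals are the deposited intensities after a shift of each array to a common 75th percentile, and differences are on the log2 scale. A floor was set at a signal of 57.8, the 50th percentile over all arrays together, lower values were raised to it, and a gene above it on at least 1 of the arrays compared counts as measured. "Higher" and "lower" in a count mean by 2-fold or more between single arrays. With 1 array per group, a difference at 1 day or within 1 medium has no test and no error between cultures. Where a gene had several bright probe sets, their differences were set against each other. From the median absolute difference this gave an error per probe set of 0.21 to 0.24 on the log2 scale over the 4 comparisons. From the standard deviation it was 0.27 to 0.30. The first is the probe set error used below, and both cover probe error only. The 2 medium comparisons use separate pairs of arrays, as do the 2 day comparisons, but each medium comparison shares arrays with each day comparison.

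The arrays were close to each other, with Pearson's r of 0.980 to 0.992 across probe sets. The 5′ control for 18S ribosomal RNA had a deposited signal of 746 on the osteogenic day 6 array and 5202 to 9162 on the other arrays. The 3′ to 5′ ratio for Gapdh was 0.756 to 0.769 on the 4 arrays and that for beta-actin 1.17 to 1.25. Of 7 osteoblast markers 4 were in the gene table, Sp7, Alpl, Col1a1 and Ibsp, and these were above the floor on all 4 arrays. Bglap, Runx2 and Spp1 were not in it and could not be read. Of markers of other lineages in the table, 0 of 3 for adipocytes, 2 of 5 for myeloid and lymphoid cells (Csf1r and Lyz2, with Ptprc, Cd68 and Cd3e below the floor on all arrays) and 1 of 5 each for endothelium (Kdr) and skeletal muscle (Ckm) were above the floor on any array. The summed signal of the myeloid and lymphoid markers was 494 and 830 at day 6 in osteogenic and normal medium, and 526 and 657 at day 3. Of the cartilage markers 3 of 5, Col2a1, Sox9 and Col9a1, were above the floor and Acan and Matn1 were below it on all arrays, with a summed signal of 6257 and 2603 at day 6 in osteogenic and normal medium, and 3933 and 2836 at day 3. The part of these markers in the differences below was not tested. In whole cultures, fewer cells of a type and less RNA per cell cannot be told apart, and scaling the arrays to each other removes any difference in total RNA.

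The main pattern of the 10 genes, chosen with earlier results of these data known, was one of day. In their brightest probe sets, all 10 genes lay above zero for day 6 over day 3 in both media. Of all genes, 47.7% of 11736 did in normal medium and 49.9% of 11947 in osteogenic medium. In normal medium 5 of 10 were higher at day 6, namely Egr1, Egr2, Ier2, Dusp1 and Zfp36, against 0.741% of all measured genes. In osteogenic medium 4 of 10 were higher, namely Egr1, Ier2, Ier3 and Dusp1, against 3.7% of all. None of the 10 was lower in either medium, where 0.741% and 2.62% of all genes were, so that 0 is near the background. The median log2 difference of the 10 genes was 1.19 in normal medium and 0.87 in osteogenic medium, and that of all genes -0.01 and -0.0012. In the brightest probe set both day 6 arrays lay above both day 3 arrays for 9 of the 10, all but Klf4. They did so for 13.8% of 12503 genes. The dimmer probe sets of Egr3 and Btg2 had another order. For Egr3 (0.14) and Nr4a1 (0.24) the gap between the nearest arrays of the 2 days was under the largest probe set error. The normal medium array at day 3 was the lowest of the 4 for 10 of 10 genes in the brightest probe set, and for 19.5% of all. Its gap to the next array was under the largest probe set error for Ier3, Dusp1, Zfp36 and Klf4. In the dimmer probe set of Egr3 the normal medium array at day 6 was lowest. The day comparison in normal medium does not use the osteogenic day 6 array with the low 18S control. That control read 5202 at day 6 and 9162 at day 3 in normal medium, and its part in the day differences was not tested.

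**Figure D1:**
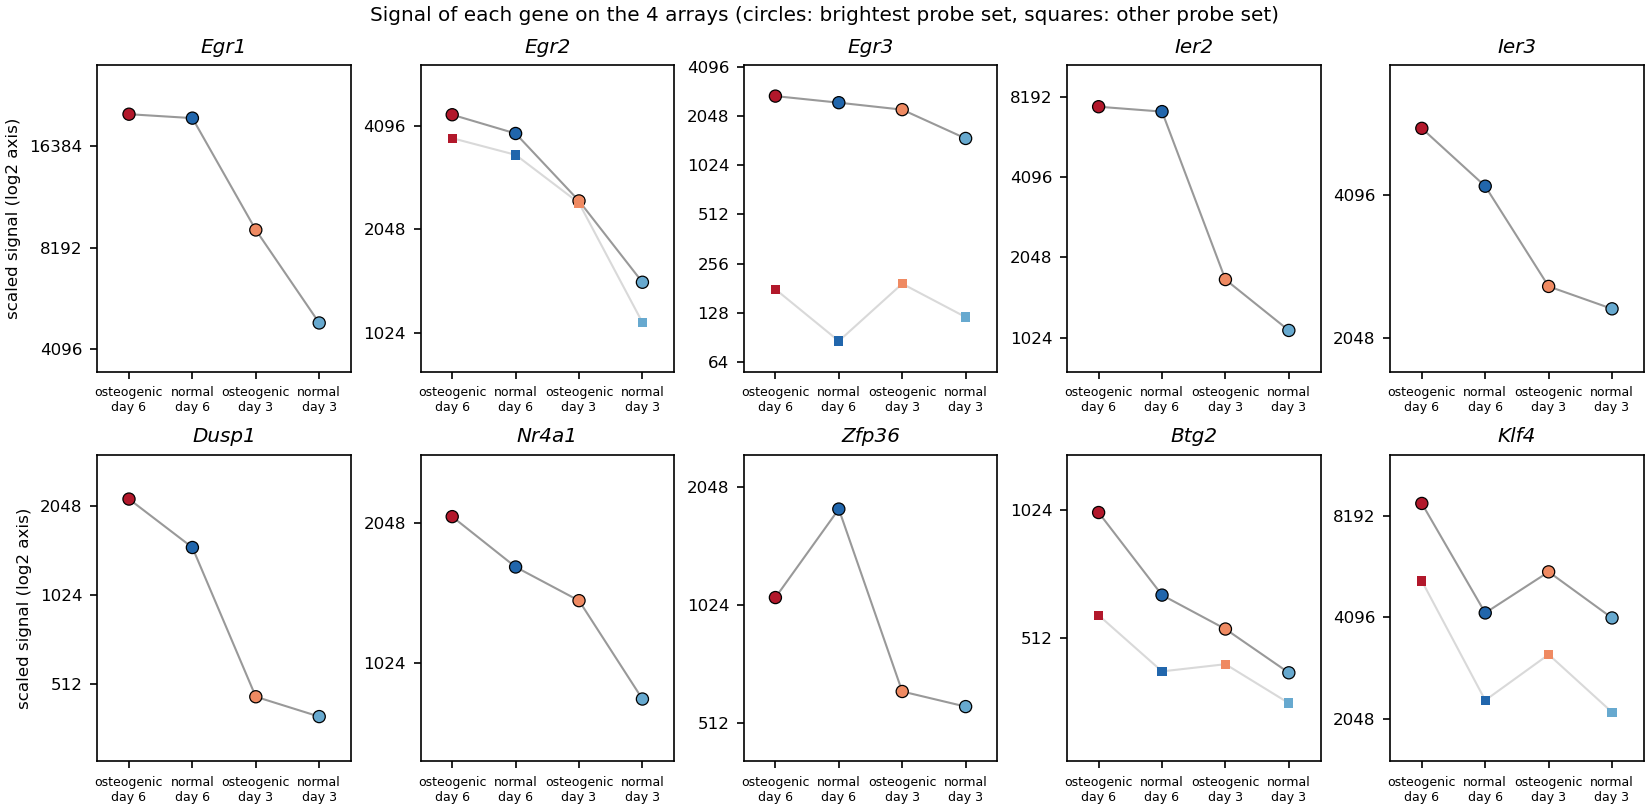
Scaled signal of each of the 10 genes (log2 axis, a range of its own for each gene) on the 4 arrays, 1 point per probe set, with lines only to guide the eye. For 9 genes both day 6 arrays lie above both day 3 arrays in the brightest probe set, and Klf4 is instead highest in osteogenic medium at both days.

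Among the Egr genes the day difference was large for Egr1 and small for Egr3. Egr1 had a signal of 20325 in osteogenic and 19789 in normal medium at day 6, and of 9238 and 4902 at day 3. The day 6 arrays differed by 0.04 on the log2 scale, less than the probe set error, while all 3 other arrays stood above normal medium at day 3. Egr1 was thus 4.04-fold higher at day 6 in normal medium, the 4th highest of 11736 genes, and 2.20-fold higher in osteogenic medium. Its highest deposited intensity was 20518, where the brightest probe set of each array read 67044 to 81516.

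Egr2 had signals of 4422 and 3899 at day 6 in osteogenic and normal medium, and of 2480 and 1437 at day 3, in the same order as Egr1. It was 2.71-fold higher at day 6 in normal medium and had a log2 difference of 0.83 in osteogenic medium. Its other probe set gave 1.62 and 0.63, and at day 3 was 2.23-fold higher in osteogenic medium, past the threshold that the brighter one (1.73-fold) missed. Egr3 had signals of 2718 and 2477 at day 6 and of 2246 and 1496 at day 3, again in osteogenic and normal medium. The upper 3 of these followed each other by less than the probe set error. Its log2 differences for day were 0.73 in normal and 0.28 in osteogenic medium, but a dimmer probe set, with signals of 85.9 to 193, gave -0.49 and -0.11, so the direction of the Egr3 day difference depends on the probe set. That probe set was also 2.08-fold higher in osteogenic medium at day 6.

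Ier2 and Dusp1 had the largest day differences of the 10 genes. Ier2 had signals of 7560 and 7247 at day 6 in osteogenic and normal medium, and of 1692 and 1089 at day 3. Its day differences, 6.66-fold in normal and 4.47-fold in osteogenic medium, ranked 2nd of 11736 and 27th of 11947 genes. Dusp1 had signals of 2154 and 1477 at day 6 in osteogenic and normal medium, and of 462 and 396 at day 3. It was 3.73-fold higher at day 6 in normal medium and 4.66-fold in osteogenic medium, ranks 5 and 22. For both genes the gap between the days was wider than either gap between media.

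Ier3, which encodes a regulator of stress-induced cell death, had signals of 5671 and 4283 at day 6 in osteogenic and normal medium, and of 2633 and 2362 at day 3. Its log2 day differences were 0.86 in normal and 1.11 in osteogenic medium. Nr4a1 had signals of 2112 and 1646 at day 6 in osteogenic and normal medium, and of 1394 and 857 at day 3, with day differences of 0.94 and 0.60 in normal and osteogenic medium. Normal medium at day 6 stood above osteogenic medium at day 3 by 0.24 for Nr4a1, just under the largest probe set error.

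The mRNA decay regulators differed from each other. Zfp36 had signals of 1070 and 1799 at day 6 in osteogenic and normal medium, and of 617 and 564 at day 3. It was the only gene of the 10 whose highest array was normal medium at day 6. It was 3.19-fold higher at day 6 in normal medium, the 11th highest of 11736 genes, and had a log2 difference of 0.80 in osteogenic medium. Btg2 had signals of 1012 and 647 at day 6 in osteogenic and normal medium, and of 539 and 425 at day 3. Its day differences were 0.61 and 0.91 in normal and osteogenic medium, and its other probe set gave 0.25 and 0.38, with osteogenic medium at day 3 above normal medium at day 6.

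Klf4 followed the medium more than the day. It had signals of 8903 and 4222 at day 6 in osteogenic and normal medium, and of 5586 and 4080 at day 3. The 2 normal medium arrays differed by 0.05 on the log2 scale, and both osteogenic arrays lay above both normal arrays, as they did for 21.7% of all genes. Its other probe set had the same order of arrays, with a medium difference at day 6 of 1.17 against 1.08 for the brighter one.

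**Figure D2:**
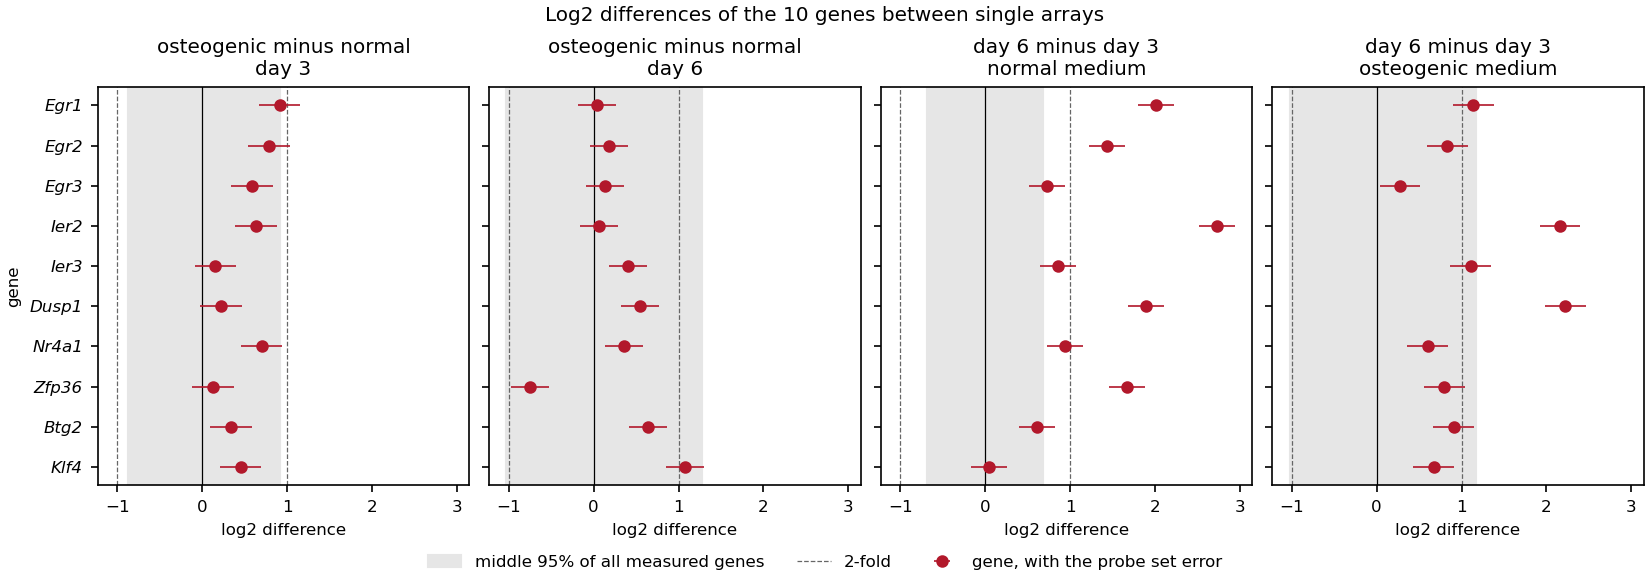
Log2 difference of each gene (horizontal axis) in the 4 comparisons of single arrays, with the error of a single probe set as the bar and the middle 95% of all measured genes in grey. Between days 8 of the 10 genes lie to the right of the grey range in normal medium, Btg2 and Klf4 within it, and 2, Ier2 and Dusp1, in osteogenic medium, while between media all 10 lie within it at both days.

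Between media the differences of the 10 genes were smaller. At day 3 all 10 lay above zero in osteogenic medium, where 51% of 11861 genes did. Of the 10, 0 were higher or lower, against 1.99% and 1.59% of all, so that 0 is near the background. Egr1 was 1.88-fold higher in osteogenic medium, just below the 2-fold threshold, followed by log2 differences of 0.79 for Egr2, 0.70 for Nr4a1, 0.64 for Ier2 and 0.59 for Egr3. Klf4 (0.45), Btg2 (0.34), Dusp1 (0.22), Ier3 (0.16) and Zfp36 (0.13) followed, the last 3 within the probe set error. The median was 0.52 for the 10 genes and 0.01 for all genes.

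At day 6, 9 of 10 lay above zero in osteogenic medium, where 51.2% of 11901 genes did, and 1, Klf4, was higher at 2.11-fold, against 4.18% of all. None was lower, against 2.78% of all, and among 10 genes counts of 1 and 0 are near the background. In their brightest probe sets the 3 Egr genes (0.04, 0.18 and 0.13 for Egr1, Egr2 and Egr3) and Ier2 (0.06) were within the probe set error of 0.22 of zero. The dimmer probe set of Egr3 was not, at 1.05. Btg2 (0.64), Dusp1 (0.54), Ier3 (0.41) and Nr4a1 (0.36) were above it, and Zfp36 (-0.75) was below zero, a signal 1.68-fold lower in osteogenic medium. The median was 0.27 for the 10 genes and 0.01 for all. The change of the medium difference from day 3 to day 6 was -0.88 for Egr1, -0.61 for Egr2, -0.58 for Ier2 and -0.88 for Zfp36, and 0.62 for Klf4. It could not be tested, as 4 arrays leave no residual degree of freedom with that term.

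An additive fit of day and medium to all 4 arrays, which leaves 1 residual degree of freedom, was the test the design allows. That residual is the change of the medium difference between days, which the fit takes as error. The p-values of the fit thus rest on no spread between replicate cultures, and limma also draws on the variance of all other genes. In limma's fit the day difference over both media was 2.45 for Ier2 (SE 0.22, adjusted p = 0.474), 2.06 for Dusp1 (SE 0.19, adjusted p = 0.474) and 1.58 for Egr1 (SE 0.27, adjusted p = 0.674). Of the 10 genes 0 passed an adjusted p of 0.05 for day, and 0 of 12503 genes did in either direction. At an unadjusted p under 0.05, 8 of the 10, all but Egr3 and Klf4, were higher at day 6, against 3.76% of all genes, and 0 were lower, against 3.59%. That count was 1 (Dusp1) with each gene's own variance in place of limma's, and 5 with neither floor nor filter. For the medium over both days 0 of the 10 and 0 of 12503 genes passed, with the lowest adjusted p of the 10 at 0.294 for Klf4 (0.76, SE 0.22). At an unadjusted p under 0.05, Nr4a1, Btg2 and Klf4 were higher in osteogenic medium, 3 of 10, against 7.43% of all genes, and 0 were lower, against 6.46%. That count was 0 with each gene's own variance, 0 with neither floor nor filter, and 1 to 4 under the other alternatives. No gene passed an adjusted p of 0.05 for either term with its own variance.

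Other early response genes, from lists chosen with earlier results of these data known, included some that followed the day and others that stood out on the osteogenic day 6 array. Of 20 other early transcription factor genes, 3 were higher at day 6 in normal medium, against 0.741% of all genes, and 5 in osteogenic medium, against 3.7%, and 0 were lower in either. Fos, the partner of Jun in AP-1, had signals of 5663 and 3546 at day 6 in osteogenic and normal medium and of 700.0 and 274 at day 3, 13.0-fold and 8.09-fold higher at day 6 in normal and osteogenic medium. Junb, another AP-1 subunit, was 3.56-fold and 3.09-fold higher. Csrnp1 was 2.06-fold higher in normal medium and at least 1.96-fold in osteogenic medium, where day 3 was at the floor. Of early response genes that do not encode transcription factors, 3 of 20 measured were higher at day 6 in normal medium and 9 of 22 in osteogenic medium, against the same shares of all genes. The 3 were Arc, known from synapses (2.78-fold), the matricellular gene Ccn1 (2.67-fold) and the stress gene Gadd45g (3.03-fold). Their log2 day differences in osteogenic medium were 1.04, 0.59 and -0.21.

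**Figure D3:**
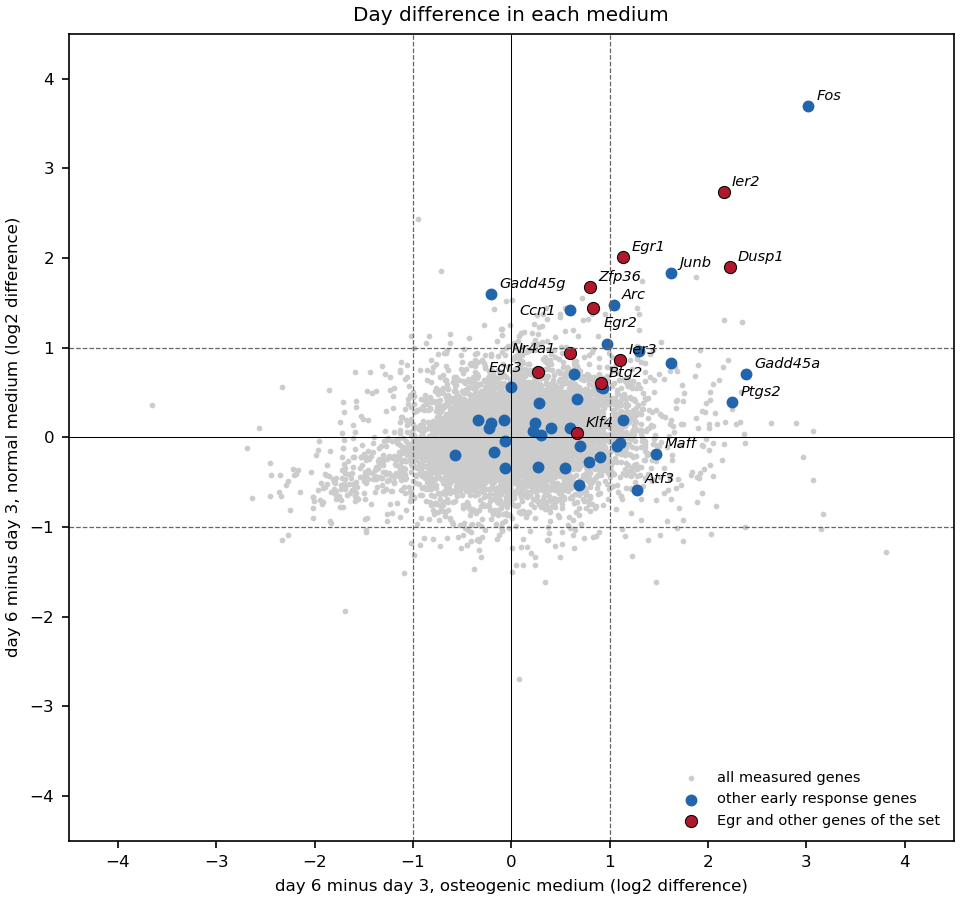
Log2 difference between day 6 and day 3 in osteogenic medium (horizontal) and normal medium (vertical), with 1 point per gene for 11180 genes measured in both, the 10 genes in red and the other early response genes in blue. Fos, Ier2, Dusp1, Egr1, Junb and Arc lie beyond 2-fold in both media, while Ptgs2, Gadd45a, Maff and Atf3 lie beyond it in osteogenic medium alone of the 2.

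Between media at day 6, where 1 of the 10 genes was higher, 5 of the 20 transcription factor genes and 8 of 22 other early response genes were higher in osteogenic medium and 0 were lower, against 4.18% and 2.78% of all genes. Maff, a small Maf factor, had signals of 430 and 72.3 at day 6 in osteogenic and normal medium and of 155 and 82.1 at day 3, 5.95-fold higher at day 6 in osteogenic medium. Atf3, a stress-induced factor, was 3.60-fold, Bhlhe40 3.41-fold and the Nr4a1 relative Nr4a2 2.97-fold higher. Ptgs2, the inducible cyclooxygenase, had signals of 2052 and 326 at day 6 and of 433 and 249 at day 3, again in osteogenic and normal medium, 6.28-fold higher at day 6. Lif was 3.14-fold and Gadd45a 3.00-fold higher, and Trib1, at the floor in normal medium, at least 2.84-fold higher. All these values rest on the osteogenic day 6 array with the low 18S control, whose part was not tested, nor was the difference between these lists and the 10 genes. The medians of the lists were 0.48 and 0.75 at day 6 between media, 0.66 and 0.73 between days in osteogenic medium, and 0.07 and 0.19 between days in normal medium.

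**Figure D4:**
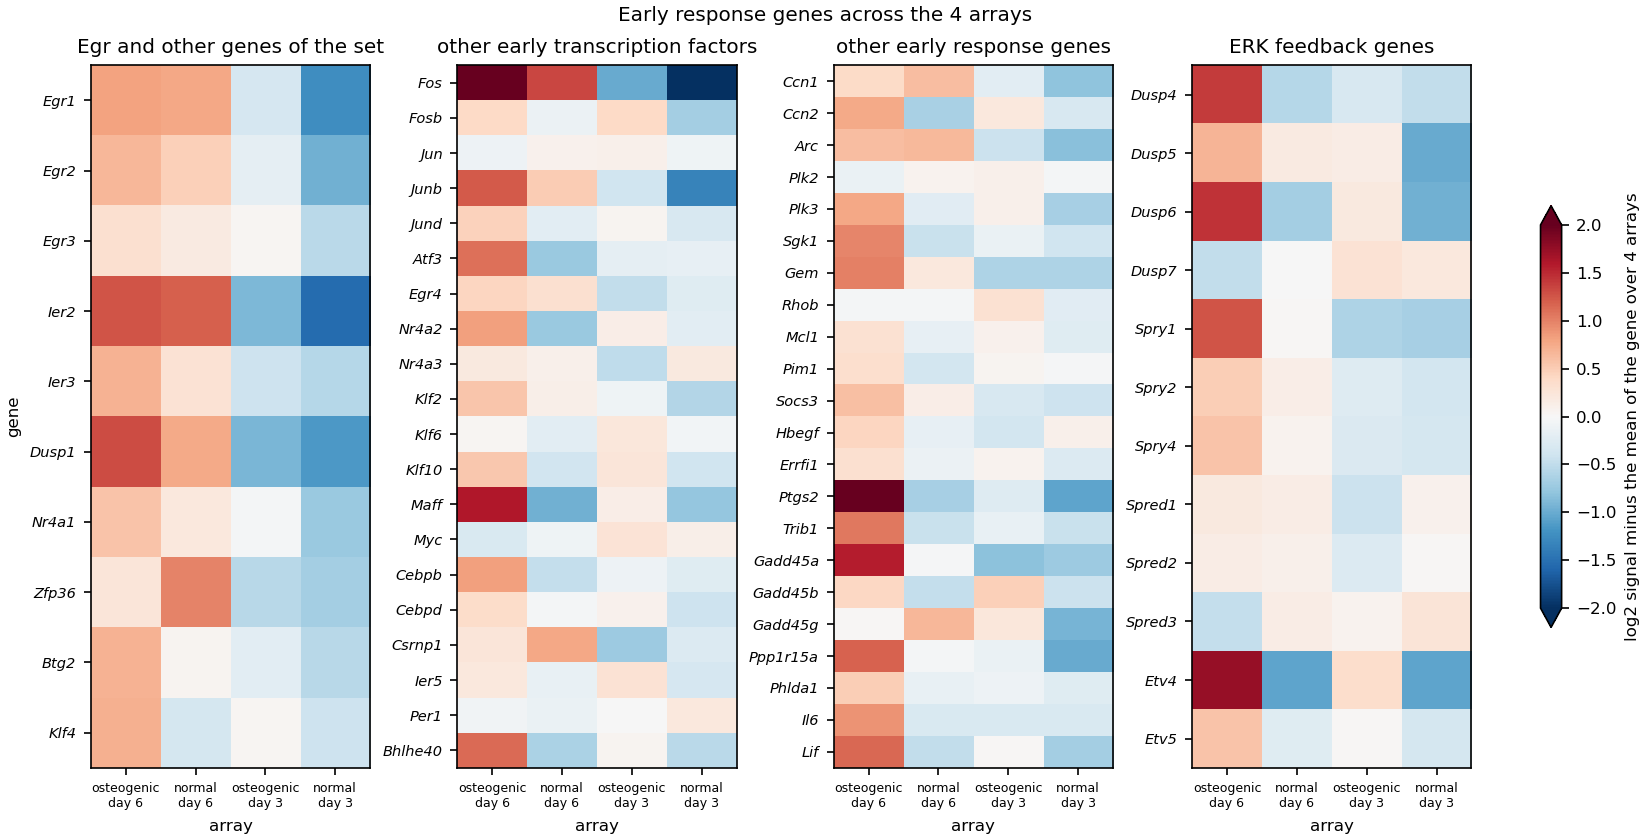
Log2 signal minus the gene's own mean over the 4 arrays (colour, limited to ±2) for the 10 genes and 3 lists, with arrays across and genes down. Egr1, Egr2, Ier2, Dusp1, Fos, Junb and Arc are high on both day 6 arrays. Maff, Atf3, Ptgs2, Gadd45a, Dusp6 and Etv4 are highest on the osteogenic day 6 array. Dusp6 and Etv4 are also over 2-fold higher in osteogenic than in normal medium at day 3.

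Of 17 measured components of the ERK, SRF and CREB pathways, upstream of the 10 genes, 0 were 2-fold apart between days in either medium. As 0.741% of all genes were higher and 0.741% lower in normal medium, and 3.7% and 2.62% in osteogenic medium, a count of 0 is near the background. Of the 17, 1, Mrtfa, a cofactor of serum response factor, was 2.09-fold lower in osteogenic medium at day 6, against 2.78% of all genes. At that day 0 were higher, against 4.18%, and both counts are near the background. Map2k1, Elk1 and Mapk14 had medium differences of 0.19, 0.62 and -0.57 at day 6. Of the feedback genes of the ERK pathway, 1 of 11, Dusp5, was higher at day 6 in normal medium, at 2.27-fold, against 0.741% of all genes. Between media, 4 of 12 were higher in osteogenic medium at day 6, against 4.18% of all genes, and 3 of 12 at day 3, against 1.99%. At day 6 Dusp6, which dephosphorylates ERK, was 4.37-fold, Dusp4 3.91-fold and Spry1 2.35-fold higher, and Etv4, at the floor in normal medium, at least 6.96-fold. The 3 at day 3 were Dusp5 (2.21-fold), Dusp6 (2.22-fold) and Etv4 (at least 2.66-fold, again at the floor in normal medium).

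Known partners and targets were read from 2 further lists. Of 11 measured Egr cofactor and target genes, 0 were 2-fold apart between days in normal medium, with a median of 0.06. As 0.741% of all genes were higher and 0.741% lower there, a count of 0 is near the background. In osteogenic medium 3 of 11 were higher at day 6, against 3.7% of all genes, with a median of 0.34. The same 3 were higher between media at day 6, against 4.18% of all genes, in a comparison that shares the osteogenic day 6 array. They were Ptgs2, Tgfb1 (3.28-fold) and Vegfa (2.95-fold), and Pdgfa was at 0.69. Of 8 measured mRNAs known as Zfp36 targets, a list that holds Ier3 and shares Ptgs2 and Vegfa with the one before, 5 were higher between media at day 6, against 4.18% of all genes, and 0 were lower, with Zfp36 itself at -0.75. Between days in osteogenic medium 6 of 9 were higher, against 3.7% of all, with a median of 1.13 and Zfp36 at 0.80. Between days in normal medium 7 of 8 lay above zero, against 47.7% of all genes, with Zfp36 at 1.67. There 0 were higher, against 0.741% of all, so that 0 is near the background. The 5 higher between media were Ptgs2, Lif, Vegfa, the chemokine gene Cxcl1 (3.91-fold) and Il6 (at least 2.31-fold, at the floor in normal medium).

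By distance between log2 profiles centred on their own mean, over the 4 arrays and 1379 candidate genes, the genes nearest to Egr1 were F13a1 (0.30), Arc (0.48), Junb (0.51), Tnfsf10 (0.52) and Dtx4 (0.58). F13a1, the A subunit of coagulation factor XIII, had signals of 9232 and 8691 at day 6 in osteogenic and normal medium and of 3672 and 2597 at day 3. The genes nearest to the median profile of the 10 were Nt5e (0.08), Gnptg (0.12), Cd200 (0.18), Bcl3 (0.22) and Arhgap6 (0.25).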

How the data were processed

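Per the labels' protocols, 500 ng of total RNA per sample was labelled by a 3′ IVT method for 1 array each. The authors deposited 1 linear intensity per probe set and array, whose mean without the lowest and highest 2% was the same on all arrays. What software summarised the probes is not given in the sources used here. Names came from GEO's platform annotation, matched by Entrez ID to RefSeq of GRCm38.p6. Of 45101 probe sets 34945 had 1 symbol, 932 several and 9160 none in the table used here, and 64 were controls.

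Arrays were shifted to a common 75th percentile and floored at the pooled 50th percentile before taking log2. The probe set with the highest mean stood for a gene. The additive fit used lmFit and eBayes of limma 3.58.1 in R 4.3.3 with Benjamini-Hochberg adjustment over 12503 genes, and its steps were tested on simulated data. Precision is limited by having 4 arrays.

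The 10 genes and the 12 lists, 154 entries in all, were chosen with earlier results of these data known. From each list up to 4 genes with the largest differences between media were named. Fos, Junb, Csrnp1, Arc, Ccn1, Gadd45g and Il6 were named after their values were seen. Of 138 distinct list genes, 14 were not in the gene table and are not analysed here. The alternatives were 9 settings of scaling, floor, filter and probe set choice, and a fit with each gene's own variance.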

Additional observations from a re-analysis of the deposited data

Results flagged for a closer look

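Zfp36 lay on opposite sides of zero in the 2 medium comparisons. Its log2 difference between osteogenic and normal medium was 0.13 at day 3 and -0.75 at day 6. The value at day 3 is within the probe set error of 0.24, each day has 1 array per medium, and the difference between the days was not tested.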

How the results depend on the processing

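The counts of the 10 genes higher or lower by 2-fold in the 4 comparisons, 8 counts in all, stayed within 1.5 times under each of the 9 alternatives. The additive fit called 0 genes under each of them and with each gene's own variance. The lowest adjusted p of any of the 10 genes was 0.252, and that of any gene was 0.0756 for medium and 0.244 for day. At an unadjusted p under 0.05, the count of the 10 genes higher at day 6 was 8, and 1 with each gene's own variance, 5 with neither floor nor filter and 8 or 9 otherwise. The count higher in osteogenic medium was 3, and 0 in both those settings, 1 with percentile 40 as the floor, a pseudocount or a common median, and 2 to 4 otherwise. Of 450 log2 differences under the alternatives, 446 moved by less than the probe set error. The other 4 came from averaging all probe sets per gene, with Egr3 at 0.59 between media at day 6, 0.12 between days in normal medium and -0.04 for the change, and Btg2 at 0.65 between days in osteogenic medium. With a shift to a common median, 8 of the 10 genes in place of 9 lay above zero between media at day 6.

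The counts of all genes depended more on the floor. Between days in normal medium 87 were higher and 87 lower, against 209 and 227 when the floor lay at percentile 40, 36 and 23 at percentile 60, 159 and 186 with a pseudocount of 32, 2045 and 2051 with neither floor nor filter, 57 and 40 with averaged probe sets, and 115 and 68 with a shift to a common median. A stricter filter, above the floor on both arrays, gave 53 lower. Between media at day 3, 236 and 188 became 397 and 355, 136 and 91, and 2374 and 2104 for percentiles 40, 60 and neither, and averaging gave 97 lower. Between media at day 6, 497 and 331 became 2564 and 2218 with neither, and averaging gave 211 lower. Between days in osteogenic medium, 442 and 313 became 2394 and 2329 with neither, percentile 40 gave 477 lower and averaging 288 higher. No paired analysis was possible because the labels give no replicate numbers and each group held 1 array, and without any of the 4 arrays the fit has no residual degree of freedom.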

Other observations

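Late serum response genes follow the immediate-early wave. Between days in normal medium 1 of 7 measured, the AP-1 gene Fosl1, was at the floor at day 6 and at least 3.07-fold lower, against 0.741% of all genes. The median log2 difference of the 7 was -0.30, and 0 lay above zero, where 47.7% of all genes did. Between days in osteogenic medium 5 of 8 lay above zero and 2, Fosl1 and Hmga2, were higher, against 3.7% of all, with a median of 0.38. At day 6 between media 3 of 8 were higher in osteogenic medium, against 4.18% of all genes. Fosl1 was at least 6.87-fold and Plaur, the urokinase receptor gene, 2.36-fold higher. The chromatin gene Hmga2 had a log2 difference of 2.48, and Ccnd1, which encodes cyclin D1, of 0.81.

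Among relatives of the 10 genes, Nr4a2 and Nr4a3 had day differences of -0.53 and -0.09 in normal medium, Zfp36l1 and Zfp36l2 of 0.19 and 0.22, and Btg1, Tob1 and Tob2 of -0.06, 0.40 and -0.23. Of 14 measured Klf genes 0 were higher or lower between days in normal medium, where 0.741% of all genes were in each direction, so that 0 is near the background. Between media at day 6, 2 of 14 were higher, against 4.18% of all, Klf4 and Klf15 (at least 2.31-fold, at the floor in normal medium). Klf10 and Klf11 were at 0.92 and 0.96. Among 8 measured MAP kinase phosphatase genes, which include Dusp1 of the 10, Dusp1 and Dusp5 were higher at day 6 in normal medium, against 0.741% of all genes. Between media 3 of 8 were higher in osteogenic medium at day 3, against 1.99% of all, namely Dusp5, Dusp6 and Dusp8. At day 6 they were 3 of 8, against 4.18%, namely Dusp4, Dusp6 and Dusp8. Dusp8 was at least 4.15-fold higher in osteogenic medium at day 3, where normal medium was at the floor, and 2.43-fold higher at day 6.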
